A study of Homo sapiens with 7 samples.

Results

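Rb occupancy was examined at 8 genes of the intrinsic and extrinsic apoptosis pathways, out of 19970 protein-coding genes on chromosomes 1 to 22 and X. They were the apoptosome scaffold APAF1, the initiator caspases CASP2, CASP8 and CASP9, the BH3-only gene BBC3, and the anti-apoptotic genes BCL2, BCL2L1 and MCL1. These genes were selected on their peaks in these same libraries, that is on values already known, so their presence, fold enrichment, width and summit position are given as a description and carry no test. A promoter was taken as the interval between 2000 bp upstream and 500 bp downstream of any annotated transcription start site (TSS) of the gene, and peaks elsewhere inside the gene were counted separately.

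Rb was profiled by CUT&RUN, which uses an antibody-directed nuclease to cut out and sequence the DNA around a bound protein, in the oestrogen receptor-positive breast cancer cell line ZR-75-1. Parental cells were given DMSO (2 libraries) or 500 nM palbociclib (2 libraries) for 4 days, and RB1 KO cells were given the same treatments (1 library each). A control reaction with an IgG2a antibody, which targets no cellular protein, was made from parental cells on palbociclib (1 library). The comparison asks which apoptosis genes carry Rb at their promoters once CDK4/6 is inhibited. RB1 KO cells were derived from the same line, and the labels name no other allele or agent in any group. According to the study's methods, RB1 was cut with Cas9 and knockout clones were grown from single sorted cells, so the RB1 KO libraries stand for clonal cells. The methods describe the libraries of a treatment arm as biological replicates of a single experiment. No expression was measured in these libraries, so the identity of the cells could not be checked against marker genes.

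Rb, the product of RB1, binds E2F transcription factors at promoters and restrains their target genes. Phosphorylation by CDK4/6 releases it, and palbociclib blocks that phosphorylation. In the intrinsic pathway, BH3-only proteins neutralise the anti-apoptotic BCL2 proteins, the mitochondrial outer membrane is breached, and released cytochrome c assembles APAF1 and caspase-9 into the apoptosome. In the extrinsic pathway, death receptors recruit and activate caspase-8. APAF1 and several caspase and BH3-only genes are known as E2F targets.

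Among parental libraries, 996 and 816 peaks were listed with DMSO, and 8399 and 8256 with palbociclib. The lowest local background in a list, which scales with sequencing depth, lay between 0.465 and 0.571 fragments in all 4 parental Rb lists. On chromosomes 1 to 22 and X the RB1 KO lists held 4 and 5 peaks and the IgG2a list 1724. The read totals of the libraries are unknown, and the 95% intervals given below for fragment pileups are exact Poisson intervals that cover counting error only, since duplicate reads were kept.

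With palbociclib, 6 of the 8 genes carried a promoter peak in both replicates, compared with 34.9% of all protein-coding genes. They were APAF1, CASP2, CASP9, BBC3, BCL2 and BCL2L1, whereas CASP8 and MCL1 had no promoter peak in any of the 7 lists. With DMSO, 1 of the 8 genes, BCL2L1, had a promoter peak in at least 1 library, compared with 6.59% of all genes, and 0 of 8 had one in both libraries, compared with 2.9%. Thus 5 genes carried one in both palbociclib libraries and in neither DMSO library, against 28.4% of all genes. No member had a promoter peak in the RB1 KO or IgG2a libraries, where 1.96% of all genes had one in at least 1 of the 3 lists. With 4 and 5 peaks in the RB1 KO lists on these chromosomes, this share comes mostly from the IgG2a list. The Rb peaks had been called against matched IgG, so their absence from the IgG2a list may not be independent of the calling. Nothing is read from these shares about the members as a set, because the peaks themselves led to their selection.

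The DNA beneath 5 of these promoters is shown because it lies at or beside the summits on which the results turn. Each stretch is the annotated exon-free sequence nearest the palbociclib summits, in hg38 and 5′ to 3′ on the strand of the gene. Capitals mark, on either strand, the NFY box CCAAT, the GC box GGGCGG bound by SP and KLF factors, and an E2F-like site, which is an E2F site as spelled out with the motif counts further on, without its first T.
APAF1, chr12:98645114-98645289, plus strand, just upstream of the gene: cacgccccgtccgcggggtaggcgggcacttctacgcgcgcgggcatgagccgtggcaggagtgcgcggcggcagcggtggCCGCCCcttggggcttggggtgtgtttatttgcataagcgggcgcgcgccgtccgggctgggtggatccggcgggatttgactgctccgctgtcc
CASP2, chr7:143288049-143288214, plus strand, just upstream of the gene: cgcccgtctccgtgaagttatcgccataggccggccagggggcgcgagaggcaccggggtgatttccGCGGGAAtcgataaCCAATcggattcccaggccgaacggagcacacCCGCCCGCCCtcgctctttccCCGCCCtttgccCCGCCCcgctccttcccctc
CASP9, chr1:15524727-15524851, minus strand, between alternative first exons: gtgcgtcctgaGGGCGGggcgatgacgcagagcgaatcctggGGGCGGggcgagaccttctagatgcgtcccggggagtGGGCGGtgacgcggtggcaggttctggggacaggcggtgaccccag
BCL2, chr18:63320129-63320428, minus strand, just upstream of the gene: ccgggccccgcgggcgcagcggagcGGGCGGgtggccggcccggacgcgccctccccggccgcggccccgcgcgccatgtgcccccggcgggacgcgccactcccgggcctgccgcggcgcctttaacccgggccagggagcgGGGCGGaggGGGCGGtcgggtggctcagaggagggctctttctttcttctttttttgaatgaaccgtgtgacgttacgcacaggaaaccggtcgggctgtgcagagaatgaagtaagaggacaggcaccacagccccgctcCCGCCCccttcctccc
BCL2L1, chr20:31723591-31723734, minus strand, in an intron behind the upstream first exons: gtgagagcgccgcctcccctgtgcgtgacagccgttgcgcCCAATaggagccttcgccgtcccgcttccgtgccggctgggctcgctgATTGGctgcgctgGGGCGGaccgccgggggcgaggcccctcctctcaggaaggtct

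All 5 stretches were GC-rich, between 68.7% in CASP2 and 73.0% in BCL2. They held between 13 (CASP9, 125 bp) and 37 (BCL2, 300 bp) CG dinucleotides, counts not adjusted for the differing lengths. The CASP2 stretch held 1 NFY box, 4 GC boxes, a pair of which overlap, and 1 E2F-like match. The BCL2L1 stretch held 2 NFY boxes in opposite orientations and 1 GC box. Of the marked motifs CASP9 and BCL2 had GC boxes alone, 3 and 4 respectively, and the APAF1 stretch had 1.

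APAF1 encodes the scaffold of the apoptosome. Its gene (ENSG00000120868.14) lies on the plus strand of chromosome 12 from 98645290 to 98735433. The fold enrichment at the summit, which is the fragment pileup over the local background as the authors' peak caller gives it, was 20.96 in palbociclib replicate 1 and 26.29 in replicate 2. No APAF1 peak was listed with DMSO, in RB1 KO cells or with IgG2a. The mean of the palbociclib replicates was 23.63 ± 3.77 (SD, n = 2). The peaks ran from 98644521 to 98645781 and from 98644729 to 98645776, and the peak of replicate 2 was contained in that of replicate 1, with 1048 bp shared. Their summits lay 187 and 126 bp upstream of the canonical TSS, outside any APAF1 transcript and within the sequence printed above in replicate 2 and just before it in replicate 1. That interval is a divergent promoter, because IKBIP is transcribed in the other direction from a TSS at −177 bp relative to that of APAF1. Both summits lay nearer to a TSS of IKBIP than to any of APAF1, and the peak cannot be assigned to either gene alone. At the summits 37 fragments (95% interval 26.1 to 51.0) and 48 fragments (35.4 to 63.6) were piled up. The peak was broad, with a mean width of 1154.5 ± 151 bp (SD, n = 2), wider than 94.7% of genes with a promoter peak in both palbociclib libraries.

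CASP2 had the highest fold enrichment of the members. It encodes caspase-2, an initiator caspase activated on the PIDDosome platform after DNA damage and failed cell division. The gene (ENSG00000106144.20) lies on the plus strand of chromosome 7 from 143288215 to 143307696. Fold enrichment was 21.92 and 30.51 in the palbociclib replicates, with no peak in the other 5 lists. The mean was 26.21 ± 6.08 (SD, n = 2), above 95.2% of the 6974 genes with a promoter peak in both palbociclib libraries and at rank 334 of them. The summit fell on the same base, 143288308, in both replicates, 43 bp upstream of the canonical TSS and 93 bp into the untranslated first exon of a longer transcript. The bases around that summit, chr7:143288293-143288322 in hg38 on the plus strand, are shown to mark the point and held none of the motifs searched.
CASP2 summit: caccgggccggggactgggtggcctggtgt
The peaks extended from 143288076 to 143288829 and from 143287953 to 143288827, so that the upstream sequence printed above fell inside the peak of replicate 2 and largely inside that of replicate 1. The pileup was 74 (58.1 to 92.9) and 109 (89.5 to 131) fragments, the deepest among the members. The local background at this summit was also raised, at 1.67 times the median of all peaks in both lists. A start site of the non-coding gene TMEM139-AS1 lies within 2000 bp of the canonical CASP2 TSS.

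CASP9 encodes the initiator caspase that APAF1 recruits. It lies on the minus strand of chromosome 1 from 15490832 to 15526534 (ENSG00000132906.18) and has 10 annotated TSSs. Fold enrichment was 8.85 and 7.78 with palbociclib, with a mean of 8.32 ± 0.76 (SD, n = 2), and no peak was listed elsewhere. The replicates were the closest of all members, the higher being 1.14 times the lower. The peaks spanned 15524453 to 15525372 and 15524532 to 15525542, a mean width of 965.5 ± 64.3 bp (SD, n = 2). Their summits lay at −560 and −640 bp from the canonical TSS, where minus is upstream, but at −49 and 34 bp from alternative TSSs, within the sequence printed above in replicate 1 and just beside it in replicate 2. The same peaks overlapped a promoter of DNAJC16. Thus a moderate level, near the middle of the 6974 genes (49.8th percentile), was spread over a broad interval (87.6th percentile of width).

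CASP8 encodes the initiator caspase of the death receptor pathway. The gene (ENSG00000064012.24) lies on the plus strand of chromosome 2 from 201233443 to 201361836, with 22 TSSs, and no library had a peak at any of them or inside the gene. The nearest palbociclib summits were 167053 and 167104 bp away, closest to STRADB, with fold enrichments of 4.96 and 4.29. CASP10 and CFLAR, related regulators encoded beside CASP8, also had no promoter peak in any list.

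BBC3 encodes PUMA, a BH3-only protein that binds the anti-apoptotic BCL2 proteins. The gene (ENSG00000105327.18) lies on the minus strand of chromosome 19 from 47220822 to 47232766. Palbociclib replicate 1 listed a peak from 47230637 to 47230827 with a fold enrichment of 4.29. Its summit lay 554 bp downstream of the canonical TSS, in an intron, and 129 of its 191 bp fell inside a promoter. Replicate 2 listed a peak from 47228089 to 47228290 with a fold enrichment of 5.50, its summit at −984 bp from an alternative TSS and in a coding exon, and a weaker peak from 47231073 to 47231247 with a fold enrichment of 3.24. None of the BBC3 peaks of replicate 1 and replicate 2 overlapped. The best peaks of the replicates had summits 2472 bp apart, so BBC3 counts as called in both replicates by gene but not by site. Such a split was seen in 284 of the 6974 genes (4.07%). The peaks were narrow, at 191 and 202 bp for the best ones, and each summit held 9 fragments (4.12 to 17.1). BBC3 therefore had the weakest peaks of the called members, with a mean fold enrichment of 4.90 ± 0.86 (SD, n = 2) at the 11.1th percentile.

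BCL2 encodes the founding anti-apoptotic member of its family and is an oestrogen-responsive gene in breast cancer cells. It lies on the minus strand of chromosome 18 from 63123346 to 63320128 (ENSG00000171791.14). Fold enrichment was 8.08 and 5.63 in the palbociclib replicates, a mean of 6.86 ± 1.74 (SD, n = 2), with no promoter peak in the other 5 lists. The peaks ran from 63319921 to 63320524 and from 63319752 to 63320526, and the summits lay 192 and 92 bp upstream of the 5′ end of the gene, within the sequence printed above. The pileup was 25 (16.2 to 36.9) and 17 (9.9 to 27.2) fragments, and these intervals overlap. The IgG2a list held a peak inside BCL2, from 63155284 to 63155497 in an intron, with a fold enrichment of 5.10 and 8 fragments at its summit (3.45 to 15.8). It lay 2818 bp downstream of the nearest BCL2 TSS, and no Rb list had a peak there. An IgG2a or RB1 KO peak inside the gene but outside its promoters was found in 1 of the 8 members, compared with 2.71% of all genes.

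BCL2L1, which encodes BCL-XL, was the only member with an Rb peak in untreated cells. The gene (ENSG00000171552.14) lies on the minus strand of chromosome 20 from 31664452 to 31723989. No peak was listed in DMSO replicate 1, and DMSO replicate 2 had a peak from 31723812 to 31723947 with a fold enrichment of 4.91. With palbociclib the peaks ran from 31723591 to 31724047 and from 31723608 to 31723987, with fold enrichments of 22.29 and 14.23. Both palbociclib values lay above the DMSO value. The palbociclib mean of 18.26 ± 5.70 (SD, n = 2) was 3.72 times the DMSO value, or between 2.9 and 4.54 times for the single replicates. The ratio compares different positions. The DMSO summit was at 31723900, whereas the palbociclib summits at 31723737 and 31723765 lay outside the DMSO peak, although the palbociclib peaks covered it. The DMSO peak of 136 bp had 9 fragments at its summit (4.12 to 17.1), and the palbociclib peaks had 46 (33.7 to 61.4) and 30 (20.2 to 42.8). The palbociclib peaks were compact for their height, with a mean width of 418.5 ± 54.4 bp (SD, n = 2) at the 30.7th percentile against the 88.0th percentile for fold enrichment. The summits lay 252 and 224 bp inside the 5′ end of the gene, in its untranslated first exons and just 5′ of the sequence printed above, and at −869 and −897 bp from the canonical TSS. This placed the occupied site at the distal start sites of BCL2L1 rather than at the canonical one. The replicates differed by 1.57 times, the widest gap among the members with overlapping replicate peaks.

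MCL1 encodes a short-lived anti-apoptotic protein. Its gene (ENSG00000143384.14) lies on the minus strand of chromosome 1 from 150560895 to 150579738, and no promoter peak was listed. Palbociclib replicate 1 had a peak near the far end of the gene record, from 150561035 to 150561198, with a fold enrichment of 5.45 and 15 fragments (8.4 to 24.7), 18489 bp downstream of the canonical TSS. It lay in an exon of a non-coding MCL1 transcript that overlaps the antisense gene ADAMTSL4-AS1, and ADAMTSL4 had the nearest protein-coding TSS. Replicate 2 had no peak there, and its nearest summit to an MCL1 TSS, at 49764 bp, belonged to ENSA. One or more palbociclib peaks inside the gene but outside its promoters were found in 1 of the 8 members, compared with 5.34% of all genes.

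**Figure D1:**
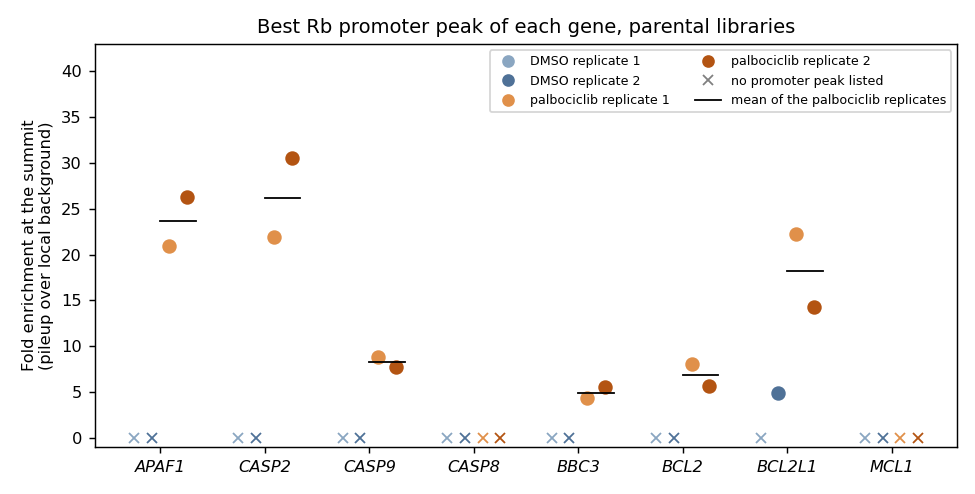
Fold enrichment of the best promoter peak (vertical axis, fragment pileup over local background at the summit) for each of the 8 genes in the 4 parental Rb libraries. Points are libraries, lines are means of the 2 palbociclib replicates, and crosses at the baseline mark a gene with no promoter peak in that list, which is not a measured 0. APAF1, CASP2 and BCL2L1 sit between 14.23 and 30.51 with palbociclib, CASP9, BCL2 and BBC3 between 4.29 and 8.85, and the DMSO point of BCL2L1 is at 4.91.

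The plot of fold enrichment by gene separates the called members into a higher and a lower set by this measure. The lowest palbociclib value of APAF1, CASP2 and BCL2L1 was 14.23, and the highest value of CASP9, BCL2 and BBC3 was 8.85. By fragments at the summit the sets were closer. BCL2L1 had 30 (20.2 to 42.8) in replicate 2, CASP9 and BCL2 each had 25 (16.2 to 36.9) in replicate 1, and these intervals overlap. Local background, relative to the list median, was 0.559 and 0.553 at APAF1, 0.763 and 0.754 at BCL2L1, and 1.67 at CASP2 in both replicates. It was 1.33 in both at CASP9, 1.53 and 1.41 at BCL2, and 0.915 and 0.523 at BBC3. Within the higher set the order of the means was CASP2, APAF1 and BCL2L1, but the replicate values of neighbours overlapped, as 21.92 to 30.51 for CASP2 and 20.96 to 26.29 for APAF1. BCL2L1, from 14.23 to 22.29, overlapped both of them. In the lower set CASP9, from 7.78 to 8.85, overlapped BCL2, from 5.63 to 8.08. BBC3, from 4.29 to 5.50, lay below BCL2 without overlap. The median over the 6 called members was 13.29, beside 8.36 (quartiles 5.99 and 12.9) over all 6974 genes with a promoter peak in both palbociclib libraries.

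**Figure D2:**
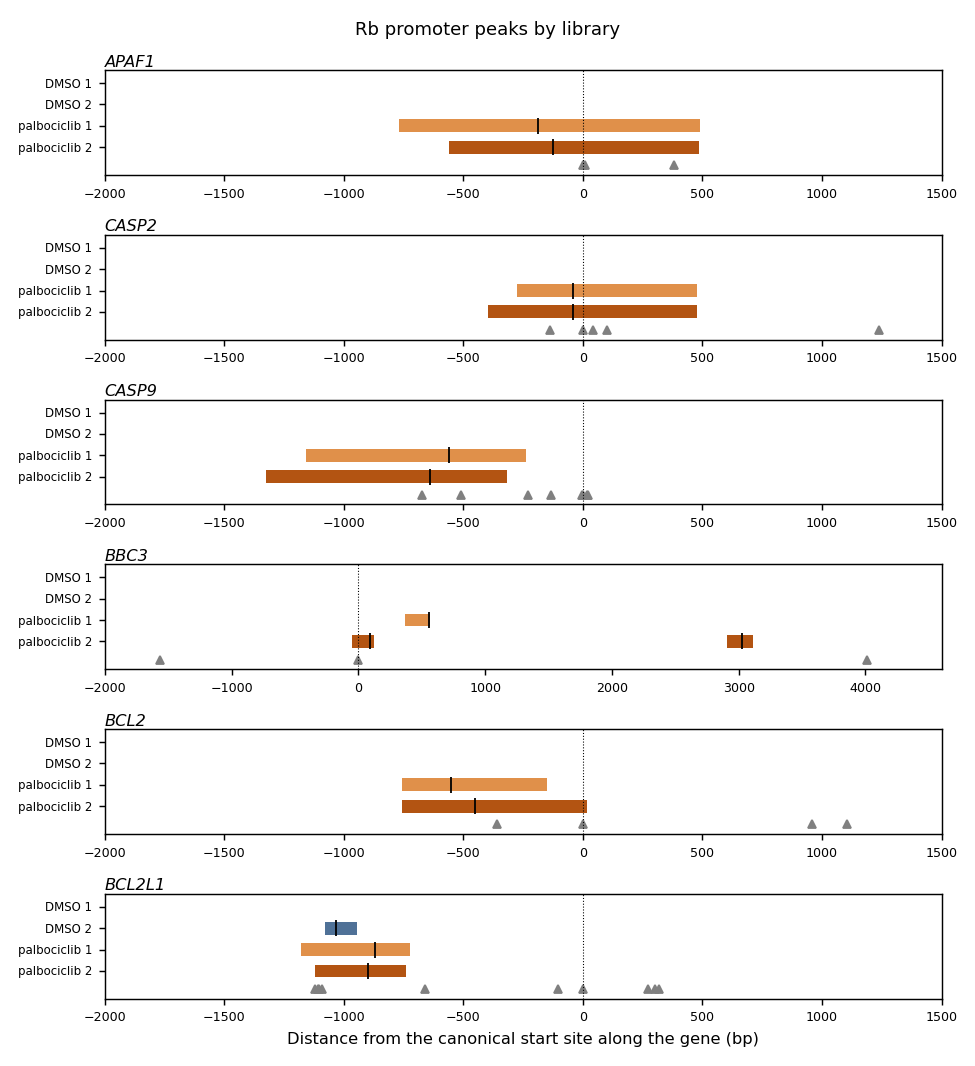
Extent of every promoter peak (bars) and its summit (black ticks) by library for the 6 genes with promoter peaks, against the distance from the canonical start site along the gene in bp. Grey triangles are annotated start sites, and the BBC3 panel has a longer axis. The replicate summits are 0 to 100 bp apart except in BBC3, where they are 2472 bp apart, and the BCL2L1 peaks lie at its upstream cluster of start sites.

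The map of the peaks shows how far position varied between members, and that replicate peaks overlapped in every called member but BBC3. The distance between replicate summits was 0 bp for CASP2, 28 bp for BCL2L1, 61 bp for APAF1, 80 bp for CASP9 and 100 bp for BCL2, but 2472 bp for BBC3. Distances were measured to the nearest start site of any transcript of the same gene. The summits lay at −187 and −126 bp in APAF1, where IKBIP had the nearer start site, and at −43 bp in both replicates of CASP2. They lay at −49 and 34 bp in CASP9 and at −192 and −92 bp in BCL2. In BCL2L1 they lay at −208 and 195 bp, since different start sites were nearest to summits 28 bp apart, and in BBC3 at 554 and −984 bp. The median over the 6 called members of the replicate means was −92.5 bp, but opposite signs cancel in the means of CASP9, BCL2L1 and BBC3. For CASP9, BCL2 and BCL2L1 the palbociclib summits lay between −451 bp, in BCL2, and −897 bp, in BCL2L1, from the canonical start site.

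**Figure D3:**
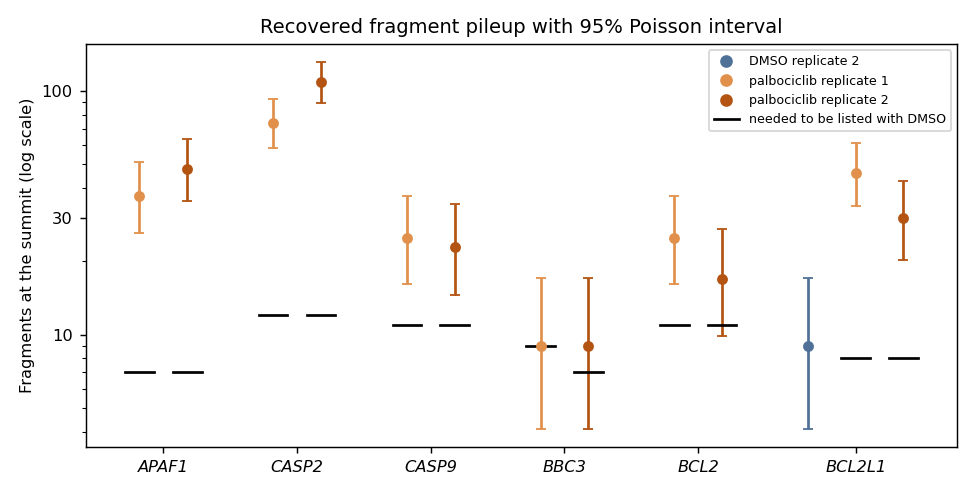
Fragments at the summit of the best promoter peak (log scale) with exact 95% Poisson intervals, by gene and library. Black lines give the pileup that the DMSO lists would have required over the same local background. The line is reached by every palbociclib point, met without margin by BBC3 in replicate 1 (9 of 9 fragments), and lies inside the intervals of BBC3 and of BCL2 in replicate 2.

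The q-value cutoff corresponded to a stricter p-value in the DMSO lists than in the palbociclib lists. Their lowest −log10 p was 5.23 and 5.33, and that of both palbociclib lists was 4.15. In the RB1 KO lists it was stricter still, at 7.06 with DMSO and 6.33 with palbociclib. The plot of summit pileups sets each palbociclib peak against the number of fragments that a DMSO list would have required over the same background. APAF1 had 37 and 48 fragments where 7 were needed, and CASP2 had 74 and 109 where 12 were needed. BCL2L1 had 46 and 30 where 8 were needed, and CASP9 25 and 23 where 11 were needed. BCL2 had 25 and 17 where 11 were needed, and BBC3 had 9 in each replicate where 9 and 7 were needed. A DMSO signal below these counts would not have been listed, so weaker Rb occupancy in untreated cells was not detectable at this depth. The peak nearest to the authors' q-value cutoff of 0.05 was the weaker BBC3 peak of palbociclib replicate 2, with a −log10 q of 1.33, followed by the BCL2L1 peak of DMSO replicate 2 at 2.53. The strongest, CASP2 in replicate 2, reached 128.

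The sequence at the summits was compared with all promoters, using exact matches on both strands. No 8-letter E2F site (TTTCCCGC, TTTCGCGC, TTTGCCGC or TTTGGCGC) lay within 100 bp of a palbociclib summit of any member, and none was found in the 300-bp canonical promoters of the 8 genes. Such a site was present in 5.27% and 5.61% of all summit windows of the 2 palbociclib lists and in 4.37% of all promoters. The CRE element (TGACGTCA) and the ETS site (CCGGAAGT) were likewise not found in these windows and promoters. The CRE element occurred in 2.69% of all promoters and in 1.0% and 1.04% of all summit windows, and the ETS site in 6.15% of promoters and in 3.0% and 3.29% of windows. The shorter E2F-like form, chosen after the data were seen, matched 1 place in the window of the best BBC3 peak of replicate 2 and 1 in the CASP2 promoter printed above. It was present in 23.0% and 23.1% of summit windows and 17.1% of promoters.

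NFY boxes (CCAAT) lay within 100 bp of the summits of APAF1, CASP2 and BCL2L1 and of no other member. A relation between this motif and fold enrichment was not tested. The APAF1 box lay just upstream of the stretch printed above. In CASP2 this box began 58 bp before the summit in both replicates and lay downstream of the stretch printed above, whose own NFY box was outside the window. Of all summit windows, 23.8% and 24.6% held an NFY box. GC boxes (GGGCGG) lay in the summit windows of APAF1, CASP9, BCL2 and BBC3, against 68.1% and 69.3% of all windows. The BCL2 windows also held 1 CHR element (TTTGAA), as did 3.29% and 3.43% of all windows. A match describes the letters only, and their absence says nothing about the factor.

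The members without promoter peaks differed from each other in sequence. The canonical CASP8 promoter had a GC content of 54.3% and a ratio of observed to expected CpG of 0.272, below the medians of 63.7% and 0.776 over all promoters. Over its 22 TSSs the CpG ratio ranged from 0.216 to 0.608. The canonical MCL1 promoter had a GC content of 65.0% and a CpG ratio of 0.848, slightly above both medians. The canonical promoters of APAF1, CASP2, CASP9, BBC3 and BCL2 were between 70.7% and 82.3% GC, with CpG ratios from 0.829 to 1.13. BCL2L1 had 61.3% and 0.569 at its canonical TSS, but 72.1% and 72.6% GC in the summit windows at its distal start sites.

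Across 58 other genes of the apoptosis pathway, 30 (51.7%) carried a promoter peak in both palbociclib libraries, 4 in 1 of them and 24 in neither. With DMSO, 7 (12.1%) had a promoter peak in at least 1 library and 5 (8.62%) in both. There were 23 (39.7%) with a peak in both palbociclib libraries and in neither DMSO library. The corresponding shares of all genes are those given above for the members. The median fold enrichment of the 30 called genes was 8.21, beside 8.36 for all genes. FAS, the gene of a death receptor, was the only one with a promoter peak in a control library, at 4.05 with IgG2a.

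**Figure D4:**
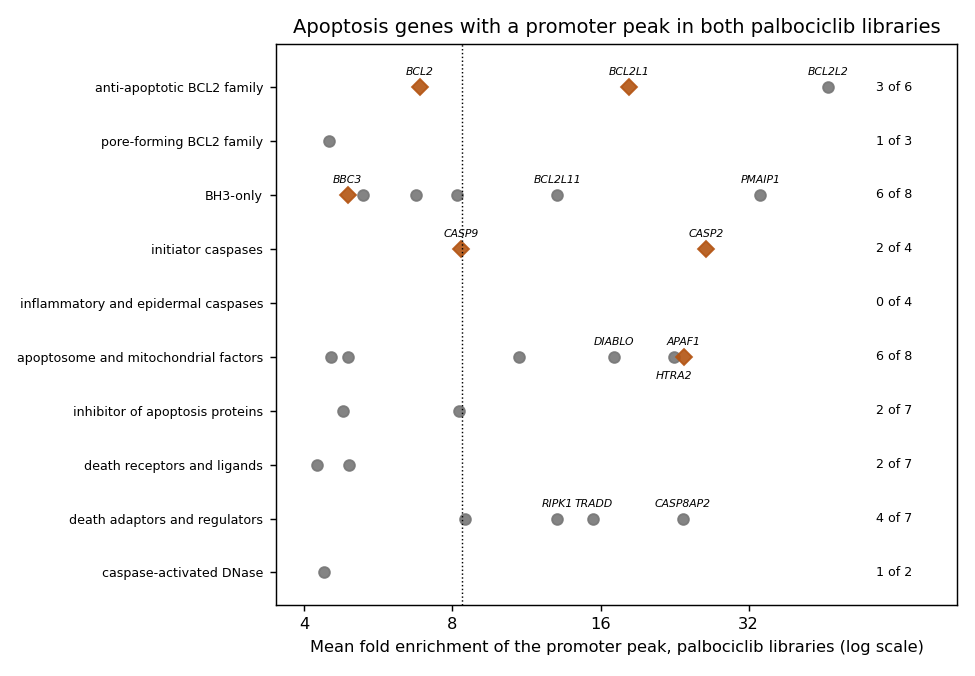
Mean fold enrichment of the promoter peak in the 2 palbociclib libraries (log scale) for genes of 10 apoptosis lists that had such a peak in both. Orange diamonds are the 8 selected genes where called, grey circles the others, the dotted line the median of 8.36 over all genes, and the counts at the right give called genes of all genes in the list. BCL2L2 and PMAIP1 lie furthest to the right, and the inflammatory and epidermal caspases have no point. By the same rule 34.9% of all protein-coding genes were called.

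The plot of the pathway lists shows promoter peaks at both pro-apoptotic and anti-apoptotic genes. The counts by list include the selected members, which were chosen on their peaks, and 34.9% of all protein-coding genes were called by the same rule. Nothing is read from these small counts about any list. Among the anti-apoptotic genes, 3 of 6 were called, the members BCL2 and BCL2L1 among them. BCL2L2, which encodes BCL-W, reached 51.22 and 41.45 with palbociclib and 7.32 and 8.72 with DMSO, higher than BCL2, BCL2L1 and MCL1 in each parental library, at a peak shared with HOMEZ and PPP1R3E. BCL2A1 and BCL2L10 had none. Of the pore-forming genes, BAX was called with a mean of 4.49, BOK had a peak in replicate 2 alone at 7.51, and BAK1 had none. Of the BH3-only genes 6 of 8 were called, led by PMAIP1, which encodes NOXA, at 38.81 and 28.84 with palbociclib and 7.66 and 8.13 with DMSO. BCL2L11, which encodes BIM, followed with a mean of 13.06 and BAD with 8.17, and both were above BBC3.

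Of the 4 initiator caspases CASP2 and CASP9 were called, both of them selected members. CASP1, CASP4, CASP5 and CASP14, which act in inflammation or skin rather than in apoptosis, had no promoter peak in any list. Of the apoptosome and mitochondrial genes 6 of 8 were called. HTRA2 (22.53, shared with AUP1) and DIABLO (17.07), which both antagonise inhibitor of apoptosis proteins, came next to APAF1.

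Death receptors and their ligands were called in 2 of 7 genes, TNFRSF1A at 4.92 and TNFRSF10A at 4.24. Of the adaptors and regulators 4 of 7 were called, led by CASP8AP2 (23.52), TRADD (15.48) and RIPK1 (13.07). Thus CASP8AP2, which encodes a caspase-8-associated protein, had a promoter peak in all 4 parental libraries whereas CASP8 had none. Of the inhibitor of apoptosis genes 2 of 7 were called, XIAP at 8.25 and BIRC5 at 4.80. DFFA, the inhibitor of the caspase-activated DNase, had a mean of 4.38, and DFFB, the nuclease itself, had a peak in palbociclib replicate 1 alone at 4.04.

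Over the 7 libraries, the genes with the pattern most like that of CASP2 were BLTP3B, with 23.09 and 28.86 in the palbociclib replicates, and CHCHD7 and PLAG1, which share a peak with 22.50 and 28.40. Each was at a Euclidean distance of 0.11 on the log2(fold enrichment + 1) scale, and none had a peak in the other 5 lists.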

How the data were processed

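The deposited files were peak lists of 7 libraries, 1 per library. The authors trimmed and aligned the reads (Bowtie2 2.3.4.1, hg38), discarded mitochondrial and blacklisted ones but no duplicates, and ran MACS2 2.2.7.1 library by library against matched IgG, keeping peaks up to a q-value of 0.05. The control of the IgG2a list is not given in the sources used here. Each deposited row gives an integer score, a fold enrichment (a ratio of pileup to local background, both plus 1), a −log10 p, a −log10 q and the offset of the summit. Scores were not used.

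Groups came from the sample titles. The members and gene lists were chosen with earlier results of these data known. Named were all members, the 3 called genes of each list with the highest mean fold enrichment, all genes of lists of 5 or fewer, and the 3 genes most like the member with the highest mean. FAS, CFLAR and neighbouring genes outside that rule were named after their values were seen.

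Peaks were matched to GENCODE 44 on GRCh38 by an overlap of at least 1 bp. Of 23 chromosomes, 0 had a peak past the end of the reference. Where a promoter had several peaks, the one with the highest −log10 q was used. Pileup and background were recovered from fold enrichment and −log10 p, the misfit in −log10 p being at most 0.00551. The scripts, tested on simulated data, used Python 3.11.15, numpy 2.4.6, pandas 2.3.3, scipy 1.17.1 and matplotlib 3.10.9. No test was run. Alternatives were a stricter q or fold enrichment, lists of equal length, other promoter definitions, replicate overlap, other measures of height, width and distance, and leaving out each parental library. The common p cutoff, the 1-bp replicate overlap and the shorter E2F form were chosen after the data were seen. Of the 12 gene lists, 2 enter the pathway counts but are not reported here singly.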

Additional observations from a re-analysis of the deposited data

How the results depend on the processing

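The number of members with a promoter peak in both palbociclib libraries, 6, was 5 at a −log10 q of at least 5, at a fold enrichment of at least 5, with a promoter of 1000 bp upstream to 100 bp downstream, with the summit inside the promoter, or where replicate peaks had to overlap, since BBC3 was then lost, and it was 6 without any single parental library. The shares of all genes called in both palbociclib lists under the first 4 of these settings were 26.8%, 27.2%, 33.8% and 34.5%. Cutting every parental list to its best 816 peaks left 2 members (APAF1 and CASP2) and 4 of the other pathway genes instead of 30, with 3.82% of all genes called in both palbociclib lists. The 1 member with a DMSO peak, BCL2L1, became 0 at a −log10 q of at least 5, at a fold enrichment of at least 5 and without DMSO replicate 2, and it was 1 without DMSO replicate 1. Of all genes 3.55% and 4.92% had a DMSO promoter peak at those q and fold limits, and 5.94% at equal length, where the member count stayed at 1. The 0 members with an RB1 KO or IgG2a peak became 1, BCL2, when peaks within 10000 bp of a TSS or anywhere in the gene counted. The share of all genes by that wider rule is not given here. Such a peak inside the gene but outside its promoters was found in 2.71% of all genes. The 1 peak inside a member outside its promoters, in MCL1, became 0 in palbociclib replicate 2 alone.

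The median fold enrichment over the 6 called members, 13.3, was 58.5 as pileup over the lowest background of the list, which is another scale. The median summit distance, −92.5 bp from the nearest TSS of the same gene, was 166 bp downstream when measured from the 5′ end of the gene record. The BCL2L1 ratio of 3.72 was 11.7 as width times fold enrichment. With 1 parental library left out at a time, members called with palbociclib stayed at 6 to 6, members with a DMSO peak ranged from 0 to 1, pathway genes from 30 to 33, the median fold enrichment from 11.0 to 14.9, the median width (752 bp) from 679 to 825 bp, the median distance from −118 to −67.5 bp and the BCL2L1 ratio from 2.9 to 4.54. That ratio had no value without DMSO replicate 2, as no DMSO peak was left. No paired analysis was possible because every result is a peak call or value given without a test, to which no block can be added. The common p cutoff gave 6 members and 27 other pathway genes, with 32.9% of all genes called in both palbociclib lists. Each list has no read total, so depth limits what the absence of a peak can show.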
